A study of Drosophila melanogaster with 18 samples.

Results

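NaPi-III and Fatp1 are Drosophila transporter genes, and their transcripts FBtr0076213 and FBtr0080133 are 2 of the 16637 transcript rows measured in this series. The rows were chosen by identifier, with earlier results of these data known. NaPi-III encodes a sodium-coupled carrier of the type III (PiT) family, which brings inorganic phosphate into the cell for nucleic acids, phospholipids and ATP. Fatp1 encodes a fatty acid transport protein. Proteins of that family promote the uptake of long-chain fatty acids and activate them to acyl-CoA, and in the fly retina Fatp is known for its part in lipid storage in glia and in photoreceptor survival. The given RefSeq gene table (Release 6) places NaPi-III on chromosome arm 3L with 2 RefSeq transcripts and Fatp1 on 2L with 4. Its synonyms carry each row's identifier beside the name of a main open reading frame, and for Fatp1 also of an upstream one. The sources used here name no genome build for the array, so no positions are given, and which transcripts of each gene the probes share was not analysed here.

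RNA came from cells of the embryonic Drosophila line Kc, which had received double-stranded RNA on each of 3 days and were collected on day 4. Control cells were given double-stranded RNA against beta-galactosidase, and the other cells were depleted of BEAF, CP190, CTCF or SuHw, or of BEAF+CP190, BEAF+CTCF, CTCF+CP190 or SuHw+CP190. Each of the 9 groups has 2 arrays, which the design text calls biological replicates from independent experiments. The 4 targets belong to chromatin insulators, protein complexes that can separate neighbouring stretches of the genome. DNA is bound directly by BEAF, mostly near gene starts, and by CTCF and SuHw, while CP190 is a partner that joins each of them on chromatin.

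The labels write the cell line in one way for control, BEAF and CP190 (the first set, 6 arrays) and in another for the other 6 groups (the second set, 12 arrays). Arrays of different sets correlated less across rows (0.978 to 0.990) than arrays of different groups within a set (0.989 to 0.998) or replicates (0.998 to 0.999). Every group lies in 1 set, so knockdown and set cannot be told apart in any difference that crosses the sets. Each double knockdown also added a second double-stranded RNA with no matched second control, so the added RNA and the loss of its target cannot be told apart either. The targeted genes had no name match and were not analysed here, so the extent of each depletion is unknown. Of the haemocyte genes expected in Kc cells, 1 of 10 had a named row, the laminin gene LanA, at a log2 signal of 14.28 in control (SD 0.0026, n = 2), and of 10 markers of other cell types none had a name match. The identity of the cells was therefore not checked further.

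Knockdown of BEAF or of CP190 lowered NaPi-III relative to the control arrays of the same set. Fatp1 also had a lower mean in both, but its calls depended on the processing, as given below. The fall was larger for NaPi-III than for Fatp1 in both knockdowns, and the difference between the transcripts was not tested. Folds are ratios of signal. The log2 signal of NaPi-III, the phosphate carrier, was 13.25 and 13.19 in the control arrays, 12.62 and 12.73 in the BEAF arrays, and 12.88 and 12.88 in the CP190 arrays. The 3 groups did not overlap, and BEAF was lowest. The share of all rows that divide in this way was not counted. NaPi-III fell by 0.55 on the log2 scale after BEAF knockdown (SE 0.054, 95% interval -0.67 to -0.43), a 1.46-fold lower signal (limma with Benjamini-Hochberg over all rows, adjusted p = 8.7e-06). It fell by 0.34 after CP190 knockdown (SE 0.054, adjusted p = 0.00043), a 1.27-fold lower signal. These changes stand against a high background, since 41.7% of all rows were called in BEAF against control and 35% in CP190 against control. Both comparisons share the same 2 control arrays. Total RNA of whole cultures was measured, so fewer cells with the transcript and less of it per cell cannot be told apart.

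Compared directly, BEAF arrays lay below CP190 arrays for NaPi-III by a log2 difference of -0.21 (SE 0.054, limma adjusted p = 0.029, 10.8% of all rows called). That call was lost without BEAF replicate 1 (-0.15), CP190 replicate 1 (-0.20) or CP190 replicate 2 (-0.21), and when only these 2 groups (adjusted p = 0.21) or only the first set (adjusted p = 0.13) entered the fit.

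Fatp1, the fatty acid carrier, had log2 signals of 12.17 and 12.21 in control, 11.96 and 11.99 in BEAF, and 11.95 and 12.04 in CP190 arrays. Both knockdowns lay below control with no overlap, and they overlapped each other. Groups of 2 arrays can divide in this way without a call. Fatp1 arrays did not overlap in 12 of the 15 pairs of second-set groups, of which 5 were called. The share of all rows that divide so against control was not counted. The difference from control was -0.22 for BEAF (SE 0.069, limma adjusted p = 0.023, 41.7% of all rows called) and -0.19 for CP190 (SE 0.069, adjusted p = 0.046, 35% called). Neither call held when any 1 of the 4 arrays of its comparison was left out. For BEAF the difference was then -0.24 without control replicate 1, -0.20 without control replicate 2, -0.20 without BEAF replicate 1 and -0.23 without BEAF replicate 2. For CP190 it was -0.21 without control replicate 1, -0.17 without control replicate 2, -0.15 without CP190 replicate 1 and -0.24 without CP190 replicate 2. Centring each array on its median also ended both calls, at -0.18 and -0.16, and the replicate block ended that of CP190 (adjusted p = 0.056). BEAF and CP190 arrays differed for Fatp1 by -0.025 with a 95% interval from -0.17 to 0.12, a range that holds differences in either direction.

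**Figure D1:**
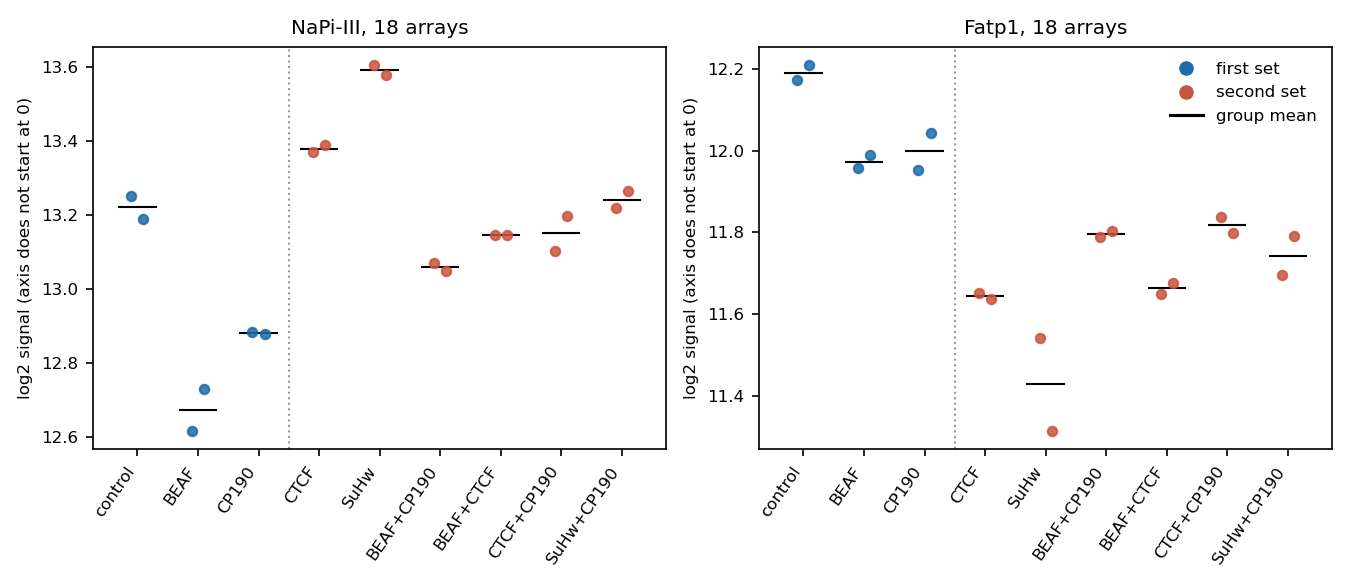
Log2 signal of NaPi-III (left) and Fatp1 (right) in each array (points) by group, with group means (bars). The dotted line divides the first set from the second. NaPi-III was lowest after BEAF knockdown (12.62 and 12.73) and highest after SuHw knockdown (13.60 and 13.58), and Fatp1 was highest in control (12.17 and 12.21) and lowest after SuHw knockdown (11.54 and 11.31).

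Knockdown of CTCF or of SuHw gave the opposite side for NaPi-III when set against BEAF and CP190 knockdown. NaPi-III had log2 signals of 13.37 and 13.39 in CTCF arrays and 13.60 and 13.58 in SuHw arrays. All 4 lay above all 4 BEAF and CP190 arrays, which ran from 12.62 to 12.88. The mean of BEAF and CP190 minus the mean of CTCF and SuHw was -0.71 (SE 0.038, limma adjusted p = 4.9e-09), a 1.63-fold lower signal. Fatp1 was placed the other way round. Its log2 signal was 11.65 and 11.64 in CTCF arrays and 11.54 and 11.31 in SuHw arrays, all below the 11.95 to 12.04 of BEAF and CP190 arrays. There the same difference was 0.45 (SE 0.049, adjusted p = 3.3e-06), a 1.37-fold higher signal. This comparison crosses the sets, and 65.8% of all rows were called in it. In 23.8% of rows the 4 BEAF and CP190 arrays lay below the other 4 with no overlap, and in 24.2% above.

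The second set holds a counterpart that does not cross the sets, the BEAF+CP190 double against the CTCF and SuHw single knockdowns, and both transcripts had the same directions in it. Both comparisons use the same 4 CTCF and SuHw arrays, so the second direction is not independent of the first. The double also received a second double-stranded RNA that the single knockdowns did not, and this cannot be told apart from the targets. NaPi-III was at 13.07 and 13.05 in BEAF+CP190 arrays, below all 4 CTCF and SuHw arrays, with a log2 difference of -0.43 (SE 0.047, limma adjusted p = 1.4e-05), a 1.34-fold lower signal. Fatp1 was at 11.79 and 11.80, above all 4, with a difference of 0.26 (SE 0.06, adjusted p = 0.0041), a 1.20-fold higher signal. The shares of all rows that divide in these ways were not counted. Taken apart, the Fatp1 difference was 0.37 against SuHw (SE 0.069, limma adjusted p = 0.0011). Against CTCF it was 0.15 (SE 0.069, adjusted p = 0.11) and was not called. NaPi-III was called against both, at -0.53 against SuHw (adjusted p = 7.4e-06) and -0.32 against CTCF (adjusted p = 0.00065). Against the other doubles BEAF+CP190 was not called for either transcript (limma adjusted p 0.060 to 0.44 for NaPi-III and 0.27 to 0.92 for Fatp1). Over the 15 pairs of second-set groups, 5.09% to 38% of all rows were called. In the comparison with CTCF and SuHw together 37% of all rows were called. Leaving out any 1 of its 6 arrays gave -0.44 to -0.42 for NaPi-III and 0.20 to 0.32 for Fatp1, and all of these were called.

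Against control, which crosses the sets, both single knockdowns of the second set had a higher NaPi-III signal and a lower Fatp1 signal. For NaPi-III the log2 difference was 0.16 in CTCF arrays (SE 0.054, limma adjusted p = 0.025, 54.9% of all rows called) and 0.37 in SuHw arrays (adjusted p = 6.3e-05, 58.7% called). The CTCF call was lost without CTCF replicate 1 (0.17), CTCF replicate 2 (0.15) or control replicate 2 (0.13). For Fatp1 the differences were -0.55 (SE 0.069, adjusted p = 1.9e-05) and -0.76 (adjusted p = 8.2e-07). All 12 second-set arrays, of whatever knockdown, lay below all 6 first-set arrays for Fatp1, with 11.84 the highest of the 12 and 11.95 the lowest of the 6. Such a division, with the second set lower, was found in 11% of all rows. NaPi-III had no such division, since its second-set arrays (13.05 to 13.60) overlapped the first set (12.62 to 13.25).

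Within the second set SuHw arrays stood apart from CTCF arrays for both transcripts, with NaPi-III lower in CTCF by -0.21 (SE 0.054, limma adjusted p = 0.018) and Fatp1 higher in CTCF by 0.22 (SE 0.069, adjusted p = 0.049), where 16.8% of all rows were called. For NaPi-III the call was lost without CTCF replicate 1 (-0.20), CTCF replicate 2 (-0.22) or SuHw replicate 1 (-0.20). For Fatp1 it was lost without CTCF replicate 1 (0.21), CTCF replicate 2 (0.22) or SuHw replicate 2 (0.10), and with the replicate block (adjusted p = 0.059). The 2 SuHw arrays were 0.23 apart for Fatp1, the widest gap between replicates of any group for either transcript. With only CTCF and SuHw arrays in the fit the adjusted p was 0.13 for NaPi-III and 0.24 for Fatp1.

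Depleting BEAF or CP190 in addition to CTCF or SuHw lowered NaPi-III in each of the 3 pairings measured, and these use no control array. NaPi-III was at 13.14 and 13.14 in BEAF+CTCF arrays and at 13.10 and 13.20 in CTCF+CP190 arrays. Both doubles lay below CTCF alone with no overlap, and the share of all rows with such a division was not counted. The log2 difference was -0.23 for adding BEAF (SE 0.054, limma adjusted p = 0.0084, 21.9% of all rows called) and -0.23 for adding CP190 (adjusted p = 0.0084, 24.4% called). The first call was lost without BEAF+CTCF replicate 1 (-0.23), BEAF+CTCF replicate 2 (-0.23) or CTCF replicate 2 (-0.22), with adjusted p from 0.051 to 0.062. The second was lost without CTCF+CP190 replicate 1 (-0.18) or CTCF replicate 2 (-0.22).

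On the SuHw background NaPi-III was at 13.22 and 13.26 in SuHw+CP190 arrays, below both SuHw arrays. How many of all rows divide so was not counted. The difference was -0.35 (SE 0.054, limma adjusted p = 0.00041, 28.4% of all rows called), a 1.27-fold lower signal, and no left-out array ended this call. When the fit held only SuHw and SuHw+CP190 its adjusted p was 0.052. The 8 arrays of the 4 double knockdowns, each of which targeted BEAF or CP190, ran from 13.05 to 13.26, and the 4 arrays with CTCF or SuHw depleted alone ran from 13.37 to 13.60. This division was noticed after the values were seen, and 8.31% of all rows had it in that direction. Every double also received a second double-stranded RNA, which cannot be told apart from the loss of BEAF or CP190.

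The BEAF+CP190 double against its own single knockdowns crosses the sets, and there NaPi-III was higher in the double. The log2 difference was 0.39 against BEAF (SE 0.054, limma adjusted p = 6.7e-05, 55.1% of all rows called) and 0.18 against CP190 (SE 0.054, adjusted p = 0.014, 54.7% called). The call against CP190 was lost without BEAF+CP190 replicate 1 (0.17) or CP190 replicate 2 (0.18). Fatp1 was at -0.18 against BEAF (SE 0.069, adjusted p = 0.044) and -0.20 against CP190 (SE 0.069, adjusted p = 0.025). Its call against BEAF was lost without any 1 of the 4 arrays (-0.19 to -0.16), and that against CP190 without BEAF+CP190 replicate 1 (-0.19), BEAF+CP190 replicate 2 (-0.21) or CP190 replicate 2 (-0.16).

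Fatp1 did not follow NaPi-III when a depletion was added to that of CTCF or SuHw. It was at 11.65 and 11.68 in BEAF+CTCF arrays, which overlapped CTCF alone, with a log2 difference of 0.018 and a 95% interval from -0.13 to 0.17. In CTCF+CP190 arrays it was at 11.84 and 11.80, above both CTCF arrays, and the difference of 0.17 (SE 0.069, limma adjusted p = 0.087) did not pass. In SuHw+CP190 arrays it was at 11.70 and 11.79, above both SuHw arrays, and rose by 0.32 (SE 0.069, adjusted p = 0.0044), a 1.24-fold higher signal. The share of all rows with either division was not counted. Without SuHw replicate 2, the lower array, that rise was 0.20 (adjusted p = 0.045), and when the fit held only SuHw and SuHw+CP190 its adjusted p was 0.13.

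**Figure D2:**
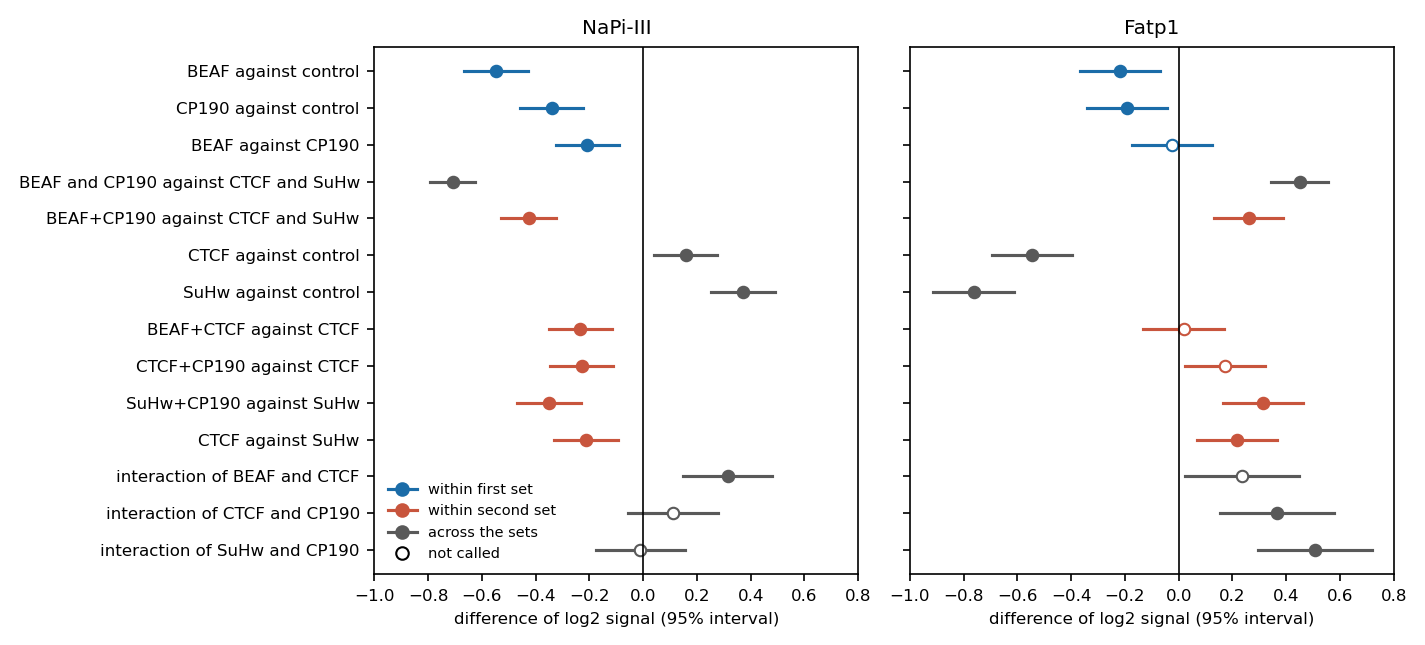
Differences of log2 signal (points) with 95% intervals (lines) for NaPi-III and Fatp1 in 14 comparisons, coloured by whether they lie within a set or cross the sets. Open points did not pass at an adjusted p of 0.05. Within the sets, the 5 pairings that add BEAF or CP190 depletion to control, CTCF or SuHw gave differences of -0.55 to -0.23 for NaPi-III and of -0.22 to 0.32 for Fatp1.

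Whether the same depletion had a different effect on another background was tested as an interaction, which sets an effect in the second set against an effect in the first. For NaPi-III the fall after BEAF knockdown was smaller by 0.31 when CTCF was also depleted (SE 0.077, limma adjusted p = 0.0094, 28.8% of all rows called), and no left-out array ended this call. The corresponding differences for CP190 were 0.11 with CTCF (95% interval -0.055 to 0.28, adjusted p = 0.31) and -0.010 with SuHw (95% interval -0.18 to 0.16, adjusted p = 0.94). For Fatp1 the effect of CP190 knockdown was higher with CTCF depleted by 0.37 (SE 0.097, adjusted p = 0.014, 27.4% of all rows called) and with SuHw depleted by 0.51 (SE 0.097, adjusted p = 0.0019, 29.8% called). The first of these was lost without CP190 replicate 1 (0.32, adjusted p = 0.051). For BEAF and CTCF the Fatp1 interaction of 0.24 (SE 0.097, adjusted p = 0.087) did not pass, and it passed when the fit held only its 4 groups (adjusted p = 0.035).

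Ordered from low to high mean log2 signal over all 9 groups, NaPi-III ran BEAF (12.67), CP190 (12.88), BEAF+CP190 (13.06), BEAF+CTCF (13.14), CTCF+CP190 (13.15), control (13.22), SuHw+CP190 (13.24), CTCF (13.38) and SuHw (13.59). The 2 lowest steps, the second of which crosses the sets, and the highest step passed the test. In these steps 10.8%, 54.7% and 16.8% of all rows were called. The 5 steps between BEAF+CP190 and CTCF did not pass. Fatp1 ran SuHw (11.43), CTCF (11.64), BEAF+CTCF (11.66), SuHw+CP190 (11.74), BEAF+CP190 (11.80), CTCF+CP190 (11.82), BEAF (11.97), CP190 (12.00) and control (12.19). For Fatp1 the lowest and the highest step passed, and the 6 between did not. Over the 36 pairs of groups, 5.09% to 60.2% of all rows were called. The group means of NaPi-III spanned 1.89-fold and those of Fatp1 1.70-fold across the sets, with SDs between replicates, pooled over groups, of 0.04 and 0.064.

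**Figure D3:**
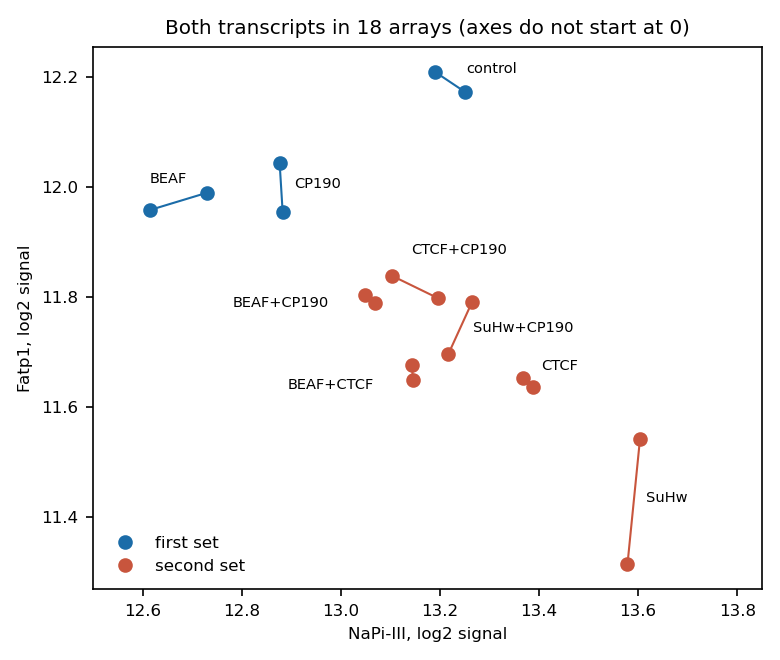
Log2 signal of Fatp1 against log2 signal of NaPi-III in the 18 arrays, with the 2 arrays of a group joined and the sets in 2 colours. In the first set control is high for both, and in the second set SuHw is high for NaPi-III (13.60 and 13.58) and low for Fatp1 (11.54 and 11.31).

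Rows of like control signal, within 0.25 of the control mean on the log2 scale, give the setting for these values as a description. For NaPi-III there were 717 such rows. In BEAF against control their median difference was -0.0083 (quartiles -0.14 and 0.11), and 15 of the 717 were lower than NaPi-III. In CP190 against control 36 were lower, in SuHw+CP190 against SuHw 9, and in BEAF+CP190 against CTCF and SuHw 9. Among the 717 rows 37.9%, 31.7%, 25% and 30.3% were called in these 4 comparisons. In these 4 comparisons NaPi-III lay in the low tail of rows of its signal, where calls in either direction were common. In SuHw against control, across the sets, it lay on the high side, with 56 of the 717 rows higher than NaPi-III. In CTCF against control 196 were higher, and its 0.16 lay below their upper quartile of 0.18. In BEAF and CP190 against CTCF and SuHw, which also crosses the sets, 10 of the 717 were lower than NaPi-III, and 68.9% were called.

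Fatp1 had 1170 rows of like control signal and its place among them varied with the comparison. In BEAF against control 200 of the 1170 were lower than Fatp1, with a median difference of -0.00075 (quartiles -0.14 and 0.15), and in CP190 against control 194 were lower. In SuHw+CP190 against SuHw 78 were higher than Fatp1, and in BEAF+CP190 against CTCF and SuHw 95. Across the sets, 68 were lower than Fatp1 in SuHw against control and 95 in CTCF against control. In BEAF and CP190 against CTCF and SuHw, also across the sets, 115 of the 1170 were higher than Fatp1, and 69.7% were called. Over the groups of the first set the means of NaPi-III spanned 0.55, more than in 97.4% of its rows of like signal, and those of Fatp1 0.22, more than in 57.4%. In the second set these shares were 95.3% and 80.7%.

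**Figure D4:**
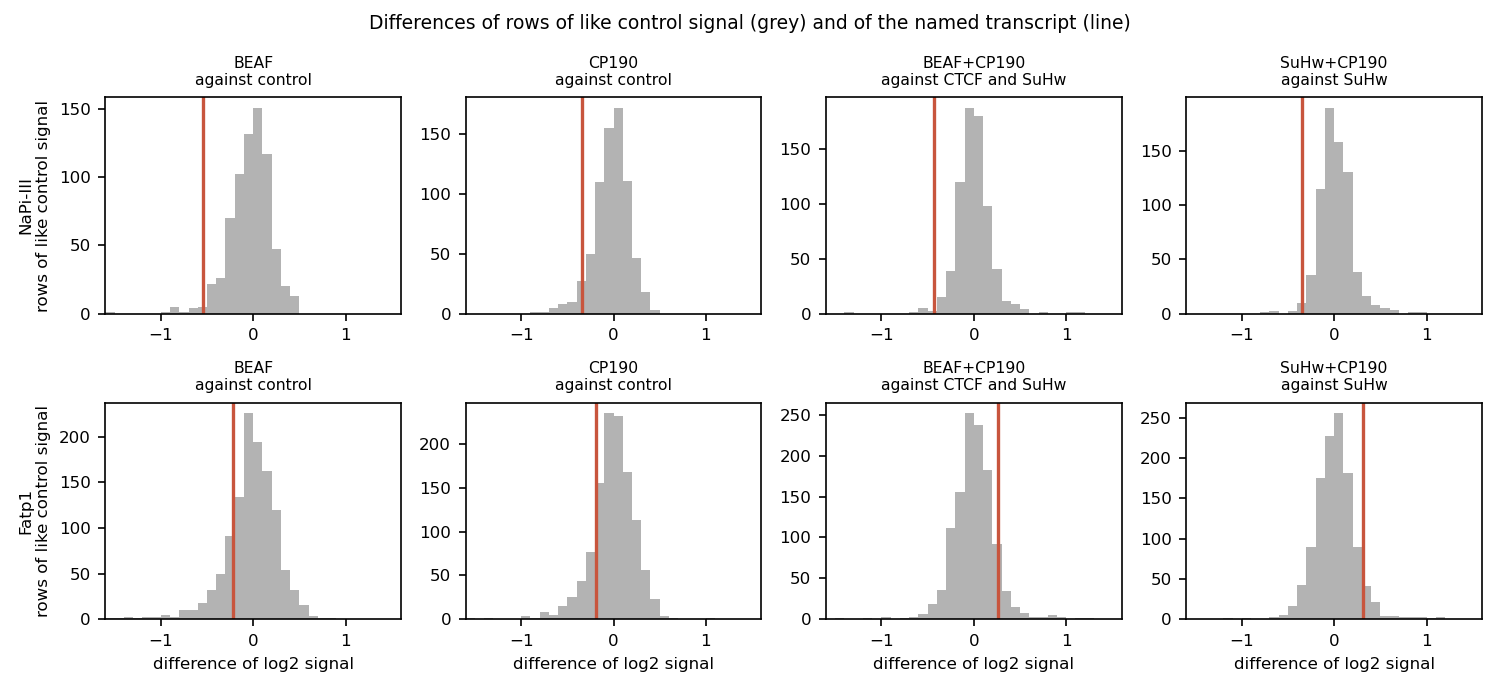
Number of rows of like control signal by difference of log2 signal in 4 comparisons (grey bars, bins of 0.1), for NaPi-III (top, 717 rows) and Fatp1 (bottom, 1170 rows). The line marks the named transcript, at -0.55, -0.34, -0.43 and -0.35 for NaPi-III and at -0.22, -0.19, 0.26 and 0.32 for Fatp1.

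Likeness of pattern was measured as Pearson's r over the 18 arrays after each row was centred within its set, among 12609 rows with an SD of at least 0.1. The arrays are 9 groups of 2, so r is a description. An r above 0.9 was reached by 43 rows for NaPi-III and by 21 for Fatp1, and the rows named below are only the highest of these. The rows most like NaPi-III were FBtr0076726 (r = 0.96) and FBtr0079503 (r = 0.96), neither paired with a name here. FBtr0076726 differed from control by -0.88 in BEAF and -0.50 in CP190 arrays and by -0.54 in SuHw+CP190 against SuHw. FBtr0079503 shares the pattern within the sets only, and its r without centring was 0.44. The rows most like Fatp1 were FBtr0071242 (r = 0.97) and FBtr0079549 (r = 0.95), and without centring the second had an r of -0.35. FBtr0071242 had an r of 0.99 without centring and differed by -0.68 in BEAF and -0.50 in CP190 against control and by 0.92 in SuHw+CP190 against SuHw. Between NaPi-III and Fatp1 themselves r was -0.27 over the 18 arrays after centring. Taken by set, r was 0.91 over the 6 arrays of the first set, which hold 3 groups, and -0.82 over the 12 of the second. How many pairs of rows have such values was not counted.

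No other gene of either pathway could be placed beside them. Of 4 listed genes of phosphate transport and 25 of fatty acid uptake, activation and storage, 1 each had a named row, NaPi-III and Fatp1 themselves.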

How the data were processed

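The authors deposited log2 signals for 16637 FlyBase transcripts on 18 NimbleGen arrays with 1 colour (Cy3). The submitters' processing notes name RMA and Partek, with no version or setting in the sources used here. As a method RMA equalises intensity distributions, so values are relative within an array. The medians of the deposited arrays still differed, since centring on them moved NaPi-III in BEAF against control from -0.55 to -0.51. No detection call is given, and the number of arrays limits the precision.

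Columns were matched to samples by name and rows to genes through synonyms in the given RefSeq table (16 rows with 1 symbol, 28 with several, 16593 with none). A mean for each group was estimated from the 18 arrays together by lmFit and eBayes of limma 3.58.1 (R 4.3.3), with 9 residual and 3.68 prior degrees of freedom and no further normalization or filter. A row was called at a two-sided Benjamini-Hochberg adjusted p under 0.05 over all rows of a comparison. There were 14 planned comparisons, and the 36 pairs of groups served the order of levels. The fit was checked on simulated data. Named were the 2 transcripts and, for each, the 2 rows of highest r. Lists of phosphate, fatty acid, insulator and cell type genes were matched by symbol, and of the 12 insulator genes none matched. The members and lists were chosen with earlier results of these data known. Alternatives were the arrays in the fit, quantile normalization, median centring, a filter on low rows, the replicate block, left-out arrays and the window of like rows.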

Additional observations from a re-analysis of the deposited data

Results flagged for a closer look

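The same depletion had a different effect on another background, by the test of the interaction, in 3 of 6 cases tested (3 interactions for each of the 2 transcripts). For NaPi-III the effect of BEAF knockdown differed by 0.31 on the log2 scale between cells with and without CTCF depletion, at -0.23 and -0.55. For Fatp1 the effect of CP190 knockdown differed by 0.37 between cells with and without CTCF depletion, at 0.17 and -0.19. For Fatp1 it differed by 0.51 between cells with and without SuHw depletion, at 0.32 and -0.19. In these interactions 28.8% (BEAF and CTCF), 27.4% (CTCF and CP190) and 29.8% (SuHw and CP190) of all rows were called. The Fatp1 interaction of CTCF and CP190 was not called without CP190 replicate 1 (0.32, limma adjusted p = 0.051). In each case 1 effect was measured in the second set and the other in the first, so the background and the set cannot be told apart.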

How the results depend on the processing

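Under quantile normalization and the filter on low rows each of the 14 comparisons kept its direction and its side of the threshold for both transcripts. With only the groups compared, calls were lost for NaPi-III in BEAF against CP190 (-0.21), CTCF+CP190 against CTCF (-0.23), SuHw+CP190 against SuHw (-0.35) and CTCF against SuHw (-0.21). They were lost for Fatp1 in CP190 against control (-0.19), SuHw+CP190 against SuHw (0.32) and CTCF against SuHw (0.22), and the Fatp1 interaction of BEAF and CTCF (0.24) was gained. With only 1 set, calls were lost for NaPi-III in BEAF against CP190 (-0.21) and for Fatp1 in CP190 against control (-0.19) and CTCF against SuHw (0.22). These fits have fewer samples and the same differences. Median centring ended the Fatp1 calls for BEAF (-0.18) and CP190 (-0.16) against control. It shifts all rows of an array alike, and NaPi-III moved to -0.51 and -0.31 and stayed called. Why the array medians differed was not tested.

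The replicate block ended the Fatp1 calls for CP190 against control (-0.19) and CTCF against SuHw (0.22) and changed no other call. Deviations of same-numbered arrays correlated at -0.20 to 0.45 over the 36 pairs of groups (median 0.028). They were above 0.1 in 0 of 3 pairs of the first set and in 8 of 15 of the second (median 0.13). Since not every pair was above 0.1 and no label ties the numbers together, the numbers were not taken to pair the samples.

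Without 1 array, NaPi-III ranged over -0.26 to -0.15 in BEAF against CP190, 0.13 to 0.19 in CTCF against control, -0.24 to -0.22 in BEAF+CTCF against CTCF, -0.28 to -0.18 in CTCF+CP190 against CTCF and -0.23 to -0.20 in CTCF against SuHw. Its interaction of SuHw and CP190, which was never called, ranged over -0.041 to 0.020. Fatp1 ranged over -0.24 to -0.20 in BEAF and -0.24 to -0.15 in CP190 against control, 0.10 to 0.33 in CTCF against SuHw and 0.32 to 0.41 in the interaction of CTCF and CP190. In BEAF against CP190, also never called, it ranged over -0.069 to 0.020. For BEAF+CP190, added after the data were seen, NaPi-III ranged over 0.17 to 0.19 against CP190, and Fatp1 over -0.19 to -0.16 against BEAF and -0.25 to -0.16 against CP190. Minus the median of rows of like control signal, each difference moved by less than the SD between replicates. With rows of like mean over 18 arrays instead, NaPi-III was 0.11 above them for CTCF and 0.33 for SuHw against control (0.18 and 0.39 with like control signal), and 0.028 in the interaction of SuHw and CP190 (-0.020).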
